A study of Mus musculus with 2 samples.

Results

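Transcription factor genes of the pancreatic progenitor and of the acinar cell were followed in RNA-seq libraries of 2 xenografted human tumors. The 10 genes were taken by symbol from a deposited table of 55726 gene entries. They were the acinar factors PTF1A, RBPJL, BHLHA15 and NR5A2, and the progenitor and duct factors GATA4, GATA6, PDX1, SOX9, ONECUT1 and ONECUT2. All 10 had rows of their own, none merged with a neighbouring gene, and GATA4 had 2 rows that were summed. The primary group was 1 library from a primary gastroenteropancreatic neuroendocrine tumor carried in the flank. The metastatic group was 1 library from a metastatic tumor of the same type carried in the peritoneal cavity. Both grafts were kept in athymic nude mice of the strain Foxn1nu, with no treatment, and RNA came from pellets of dissociated tumor. Origin of the tumor and site of the graft changed together and cannot be told apart, and each group is 1 tumor. Their sample titles have a code in common, but the labels do not state whether both grafts came from 1 patient.

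The acinar cell makes the digestive enzymes of the pancreas, and PTF1A is the factor that defines it. PTF1A works in a complex with an E protein, such as the products of TCF3 and TCF12, and a protein that binds the RBPJ site. In the embryo that RBPJ-site subunit is RBPJ itself, and in the mature acinar cell it is its relative RBPJL. PDX1, SOX9, GATA4, GATA6 and ONECUT1 mark the progenitors from which acinar, duct and endocrine cells all arise, and SOX9 later stays on in duct cells.

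Values are FPKM, by definition fragment numbers corrected for the length of the transcript and for sequencing volume, so levels of different genes can be compared per length. With 1 library a group there was no replicate, no test and no p-value, and read depth is not given. The FPKM columns summed to 784987 in the primary graft and 885319 in the metastatic graft. Differences are log2((metastatic + 1)/(primary + 1)), which understates those of low genes. A gene is called higher or lower where this log2 ratio reaches a 2-fold difference in the metastatic library. Of 12994 entries with at least 1 FPKM in a library, 1215 were higher and 1239 lower, so 49.5% of the differing entries were higher. With the libraries scaled to the same sum the numbers were 962 and 1684, and 36.4% were higher. That scaling moved the median log2 ratio of all entries by -0.15, from 0.03 to -0.12.

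The 3 acinar factors PTF1A, RBPJL and NR5A2 were well expressed in both tumors, at 18.5 to 50.9 FPKM, beside a median over all 12994 entries of 9.79 FPKM in the primary graft and 9.30 in the metastatic graft. SOX9 was the other abundant factor. PDX1, GATA4, ONECUT1 and BHLHA15 were low, between 1.65 and 4.02 FPKM, and GATA6 was under 1 FPKM in both. Of the 10 factors, 9 reached 1 FPKM in a library. Among those 9, 0 were at least 2-fold higher in the metastatic library, where 9.35% of all entries were. SOX9 alone was at least 2-fold lower, 1 of 9, where 9.54% of all entries were. In either direction 18.9% of all entries differed. The median log2 ratio of the 9 was 0.16. Over all 10 factors it was 0.10, with 7 larger in the metastatic and 3 in the primary graft. Among those 7, NR5A2, GATA6 and PDX1 were nearly level and changed direction with the libraries scaled to the same sum. Their log2 ratios were then -0.0033, -0.03 and -0.08. Larger and smaller values were not counted in this way over all entries. With no pseudocount the count among the 9 was 2 higher, PTF1A and ONECUT2, and 2 lower, SOX9 and ONECUT1, an alternative chosen after seeing the data. Over all 12994 entries the numbers were then 1783 higher and 1928 lower. ONECUT2 reached 1 FPKM in the metastatic library only, so the limit itself admitted it through the library where it is high.

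**Figure D1:**
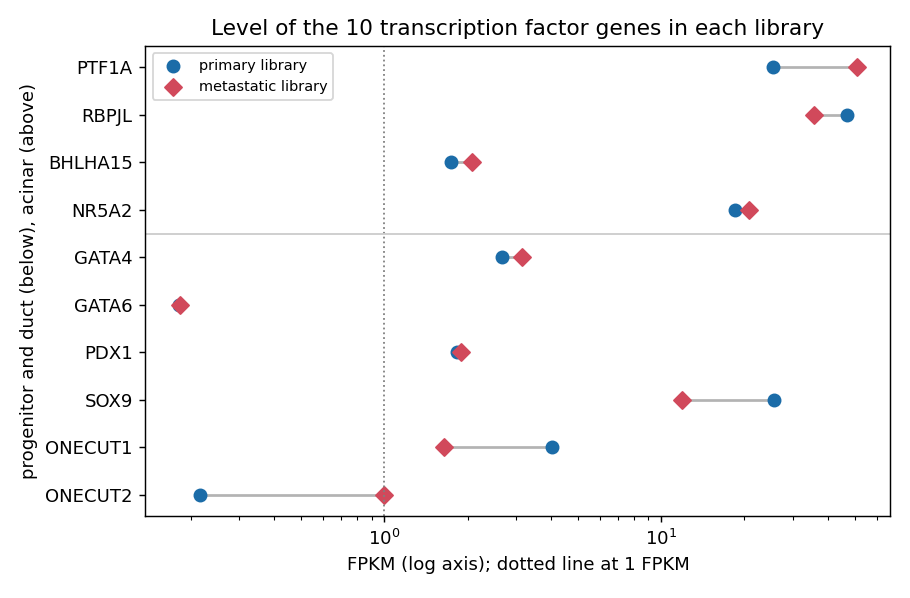
FPKM of each of the 10 genes on a log axis, with a circle for the primary and a diamond for the metastatic library; acinar factors are above the grey line. PTF1A, RBPJL, NR5A2 and SOX9 lie between 11.9 and 50.9 FPKM, and GATA6 lies at 0.18 in both libraries.

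PTF1A, the bHLH factor that commits progenitors to the acinar fate, stood at 25.4 FPKM in the primary graft and 50.9 in the metastatic graft. The metastatic value was the larger, by 2.002-fold as a plain ratio. Its log2 ratio was 0.97, just short of the 2-fold call, and 0.81 with the libraries scaled to the same sum. PTF1A lay above 71.8% of the expressed entries in the primary and above 83.1% in the metastatic library.

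RBPJL, the subunit found in mature acinar cells, stood at 47.1 FPKM in the primary graft and 35.8 in the metastatic graft. Here the primary value was the larger, by 1.32-fold, with a log2 ratio of -0.39. RBPJL was the most abundant of the 10 factors in the primary library and the second after PTF1A in the metastatic one. RBPJL exceeded PTF1A by 1.85-fold in the primary library, and PTF1A exceeded RBPJL by 1.42-fold in the metastatic library. The order of these subunits was thus different in the 2 libraries.

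RBPJ, the widely expressed relative that also carries Notch signals, stood at 13.9 and 14.8 FPKM in the primary and metastatic library. RBPJL was above RBPJ in both, by 3.38-fold and 2.42-fold. The E protein gene TCF3 stood at 37.9 FPKM in the primary graft and 50.9 in the metastatic graft. TCF12, another E protein gene, went the other way, at 43.4 and 20.7 FPKM, a log2 ratio of -1.03. A further E protein gene, TCF4, was lower in level, at 4.47 and 3.31 FPKM. Transcripts for every kind of subunit of the PTF1 complex were therefore listed above 10 FPKM in both tumors.

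NR5A2, a nuclear receptor that keeps acinar genes active and also acts in liver and gut, was nearly level. It stood at 18.5 FPKM in the primary graft and 20.8 in the metastatic graft, a log2 ratio of 0.16, or -0.0033 after scaling to the same sum. BHLHA15, also called MIST1, shapes the secretory apparatus of acinar and other secretory cells. It was the low one among the acinar factors, at 1.75 FPKM in the primary graft and 2.07 in the metastatic graft. In the primary graft NR5A2 lay 10.6-fold above it.

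SOX9, the HMG-box factor of progenitors and duct cells, stood at 25.7 FPKM in the primary graft and 11.9 in the metastatic graft. The primary value was 2.16-fold the metastatic one, and the log2 ratio of -1.05 lay just past the 2-fold call. SOX9 and PTF1A were almost equal in the primary library, at a ratio of 1.01, while PTF1A was 4.27-fold above SOX9 in the metastatic library. A merged locus that holds the antisense gene SOX9-AS1 with ROCR stood at 3.01 and 1.16 FPKM, a log2 ratio of -0.89, short of the 2-fold call. The strandedness of the library is not given, so reads of overlapping antisense genes could not be separated. SOX8, a relative of SOX9, stood at 1.59 and 0.748 FPKM, and SOX10 was listed at 0 in both.

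ONECUT1, also known as HNF6, acts upstream of PDX1 and of the endocrine program. It stood at 4.02 FPKM in the primary graft and 1.65 in the metastatic graft, a plain ratio of 2.44 in favour of the primary. Its log2 ratio was -0.92, short of the call, and -1.10 after scaling to the same sum, past it. ONECUT2 went the other way, at 0.217 FPKM in the primary graft and 1.0009 in the metastatic graft, so that it met the 1 FPKM limit in the metastatic library only. ONECUT1 was 18.6-fold above ONECUT2 in the primary and 1.65-fold above it in the metastatic library. ONECUT3 was listed at 0 and 0.00603 FPKM.

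PDX1, the homeobox factor required for the pancreas to form, was low and level, at 1.83 FPKM in the primary graft and 1.90 in the metastatic graft. PTF1A lay 13.9-fold above PDX1 in the primary and 26.8-fold above it in the metastatic library. The PDX1 values stood in a ratio of 26 to 27 to within 0.001%. Such ratios of whole numbers up to 30 were found in 38.3% of the 1666 rows between 0.5 and 2 FPKM in both libraries. After multiplying the metastatic column by 0.97 or 0.93 they were found in 0.42%, and after multiplying it by 0.95, which turns some of these ratios into others of the same kind, in 16.4%. That pattern is what whole fragments of equal worth in both columns would give, so low values such as that of PDX1 may rest on few fragments, and a difference in depth may be left in the columns.

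GATA4, a zinc finger factor of early foregut and pancreas, summed to 2.66 FPKM in the primary graft and 3.15 in the metastatic graft. Its 2 rows differed in direction, at 0.993 and 0.804 FPKM in the first row and at 1.67 and 2.35 in the second. The first row had a ratio of 21 to 17 to within 0.001%. GATA6, which shares much of its role with GATA4 in the pancreas, stood at 0.182 FPKM in both libraries. GATA4 was 14.6-fold above GATA6 in the primary and 17.3-fold above it in the metastatic library. GATA6-AS1, a noncoding RNA gene beside it, stood at 0.0531 and 0.361 FPKM. Of the other GATA genes, GATA2 was the highest, at 6.98 and 3.52 FPKM, above GATA4 in both libraries. GATA3 stood at 1.15 and 0.385 FPKM, GATA1 at 0 and 0.0406, and GATA5 was listed at 0 in both.

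**Figure D2:**
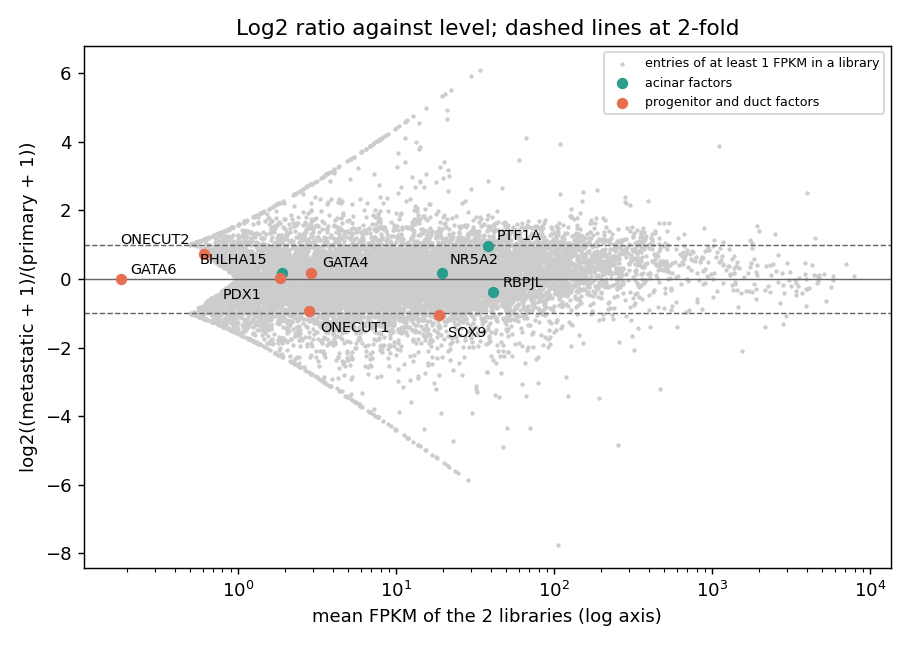
Log2 ratio of metastatic over primary FPKM, with 1 FPKM added to each, against the mean FPKM of the 2 libraries on a log axis; grey points are the 12994 expressed entries. PTF1A at 0.97 and SOX9 at -1.05 lie closest to the dashed 2-fold lines among the abundant factors, on opposite sides of 0.

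Other regulators of acinar genes were mixed. Of 14 listed partners and regulators, 12 reached 1 FPKM, with a median log2 ratio of -0.07. Of the 12, 1 was higher and 3 were lower, where 9.35% and 9.54% of all entries were. NR0B2, the small heterodimer partner that is a target and a repressor of NR5A2, was the higher one, at 8.67 FPKM in the primary graft and 29.4 in the metastatic graft. BHLHE40, a repressor that binds E-boxes, stood at 147 and 36.4 FPKM. ID1, an inhibitor that takes up E proteins, stood at 8.93 and 3.05, while its relative ID2 was level at 20.9 and 20.7. BHLHE40, ID1 and TCF12 were the 3 lower genes. XBP1, which expands the endoplasmic reticulum of secretory cells, was abundant at 197 and 260 FPKM.

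Genes known as targets of single factors gave few values. Of 6 listed targets of NR5A2, NR0B2 and SCARB1 reached 1 FPKM in both libraries, and both were higher in the metastatic library, where 9.35% of all entries were. SCARB1, a lipoprotein receptor, stood at 54.1 and 118 FPKM. APOA1, at 0.289 and 11.2 FPKM, reached the limit in the metastatic library only. CEL, a pancreatic lipase gene, stood at 0.618 and 0.483 FPKM, CYP7A1 at 0 and 0.0158, and CYP8B1 at 0 in both. Of 5 listed targets of BHLHA15, 2 were merged with other genes and 2 reached 1 FPKM. The gap junction gene GJB1 stood at 13.6 and 16.3 FPKM and RAB26 at 1.40 and 1.16, in opposite directions. Both were within 2-fold, as most entries were, since 18.9% of all entries differed by at least 2-fold.

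Several acinar secretory products were abundant in both grafts and higher in the metastatic one. Of 30 listed, 7 stood only in loci merged with other genes and 16 of the rest reached 1 FPKM. In the metastatic library 9 of these 16 were higher and 1 was lower, where 9.35% and 9.54% of all entries were. Of the 9, PRSS2 and GP2 reached 1 FPKM in the metastatic library only, so the limit itself chose them as higher. The median log2 ratio of the 16 was 1.26. Over all 23 products with rows of their own it was 0.21, with 13 larger in the metastatic and 8 in the primary graft. The carboxypeptidase gene CPA1 stood at 101 FPKM in the primary graft and 473 in the metastatic graft. CTRB2, a chymotrypsinogen gene, stood at 192 and 536 FPKM, but its near-identical copy CTRB1 stood at 10.2 and 8.86, so how reads were split between them is uncertain. REG1A, a secreted lectin gene, was the lower one, at 3140 and 1177 FPKM.

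Presence of products was uneven. Genes abundant in normal acinar cells, such as CPB1 at 0.0125 and 0 FPKM, CEL, and SYCN and AMY2A at 0 in both, were near or at 0. CLPS, the colipase gene, by contrast stood at 120 and 293 FPKM. CPB1, SYCN, AMY2A and CLPS were picked after their values were seen.

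**Figure D3:**
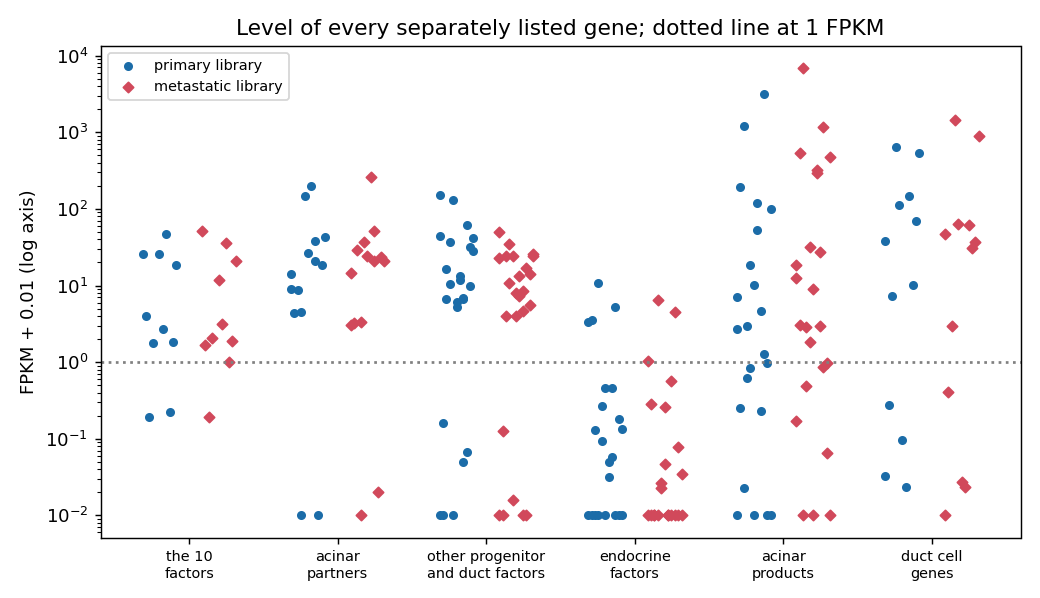
FPKM plus 0.01 on a log axis for every gene with a row not merged with other genes, with circles for the primary and diamonds for the metastatic library. Among endocrine factors 18 of 22 lie under the dotted line at 1 FPKM in both libraries, while 9 of the 10 factors described here reach it in at least 1 library.

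Endocrine transcription factors were low, in grafts labelled neuroendocrine. Of 23 listed, NEUROD1 stood only in a locus merged with CERKL, and 4 of the other 22 reached 1 FPKM. Summed over the 22, the level was 24.7 FPKM in the primary graft and 13.3 in the metastatic graft. PTF1A alone stood at 25.4 and 50.9 FPKM, nearly equal to that sum in the primary and above it in the metastatic graft. PAX6, an endocrine and eye factor, stood at 10.9 and 6.55 FPKM, and SIX2 at 5.24 and 4.52. INSM1, a zinc finger factor of endocrine cells, stood at 3.54 and 0.271 FPKM, and RFX3 at 3.31 and 1.04. Of the 4, INSM1 and RFX3 were lower in the metastatic library and 0 were higher, where 9.54% and 9.35% of all entries were. INSM1 reached 1 FPKM in the primary library only.

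NEUROG3, which starts the endocrine program, ISL1 and NKX6-1 were listed at 0 in both libraries. NKX2-2 and PAX4, which steer endocrine subtypes, stood at 0.0219 and 0.0476 FPKM in the primary library and at 0 in the metastatic one. RFX6 stood at 0.257 and 0.0129 FPKM. These genes, of which NKX6-1 comes from the progenitor list, were named after their values were seen. Of 12 neuroendocrine markers, 10 stood in rows of their own and 7 of these reached 1 FPKM. Of the 7, 2 were higher and 3 lower, where 9.35% and 9.54% of all entries were. CHGA was listed at 0 in both libraries, NCAM1 at 0 and 0.236 FPKM, CHGB at 1.64 and 0.336 and SYP at 1.63 and 1.96. The 2 higher markers were UCHL1, at 225 and 705 FPKM, and DDC, at 48.1 and 103. The 3 lower ones were PCSK1, at 19.9 and 2.74 FPKM, SCG2, at 2.62 and 0.340, and INSM1. The median log2 ratio was -0.98 over the 7 and -0.25 over the 10.

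An exact 0 may not mean that a gene was silent. The housekeeping genes LDHA, RPL7A and RPS25, each with 2 rows, were listed at 0 in both libraries. Over symbols that are protein-coding in mouse, 66.5% of 768 with 2 or more rows were at 0 in both libraries, against 10.2% of 13660 with 1 row. CHGA had 2 rows as well. NEUROG3, ISL1 and NKX6-1 had 1 row each. GATA4 was the only one of the 10 factors with 2 rows, and both of its rows were above 0.

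Other progenitor and duct factors were more often lower than higher. Of 24 listed, 17 had the larger value in the primary graft and 5 in the metastatic graft. Of the 24, 18 reached 1 FPKM, with 0 higher and 4 lower, where 9.35% and 9.54% of all entries were. Their median log2 ratio was -0.51, or -0.67 after scaling to the same sum, and over all 24 it was -0.14. The 4 were HES1 and HEY1, effectors of Notch signalling, ELF3, an epithelial ETS factor, and YAP1, the coactivator of the Hippo pathway. HES1 stood at 129 and 24.5 FPKM, HEY1 at 149 and 50.4, ELF3 at 62.1 and 17.1, and YAP1 at 31.4 and 14.2. SOX9 was lower in the same library as these genes. At the other end of the list, all within 2-fold, FOXA2 stood at 10.5 and 10.8 FPKM, FOXA1 at 6.80 and 8.38, MNX1 at 6.11 and 7.97 and HHEX at 16.2 and 24.2. These are factors of the foregut and early pancreas, but others of that kind in the list did not share the direction. FOXA3 stood at 41.8 and 25.8 FPKM and PROX1 at 9.79 and 5.61, both within 2-fold. FOXA3 and PROX1 were picked after their values were seen. SOX4, a progenitor factor, was level at 36.9 and 34.8 FPKM.

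Duct cell genes went both ways. Of 15 listed, 3 stood only in merged loci and 8 of the rest reached 1 FPKM. Of these 8, 2 were higher and 2 lower, where 9.35% and 9.54% of all entries were. The median log2 ratio was -0.26, or -0.02 over all 12 with rows of their own. KRT7 stood at 146 and 61.2 FPKM and SPP1, osteopontin, at 7.26 and 2.91, lower as SOX9 was. KRT8 stood at 649 and 1423 FPKM and the tetraspanin gene TSPAN8 at 10.2 and 31.0, higher. KRT19, the keratin used to mark duct cells, was at 38.1 and 46.9 FPKM, and CFTR, the chloride channel of duct cells, was at 0.0134 in both.

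**Figure D4:**
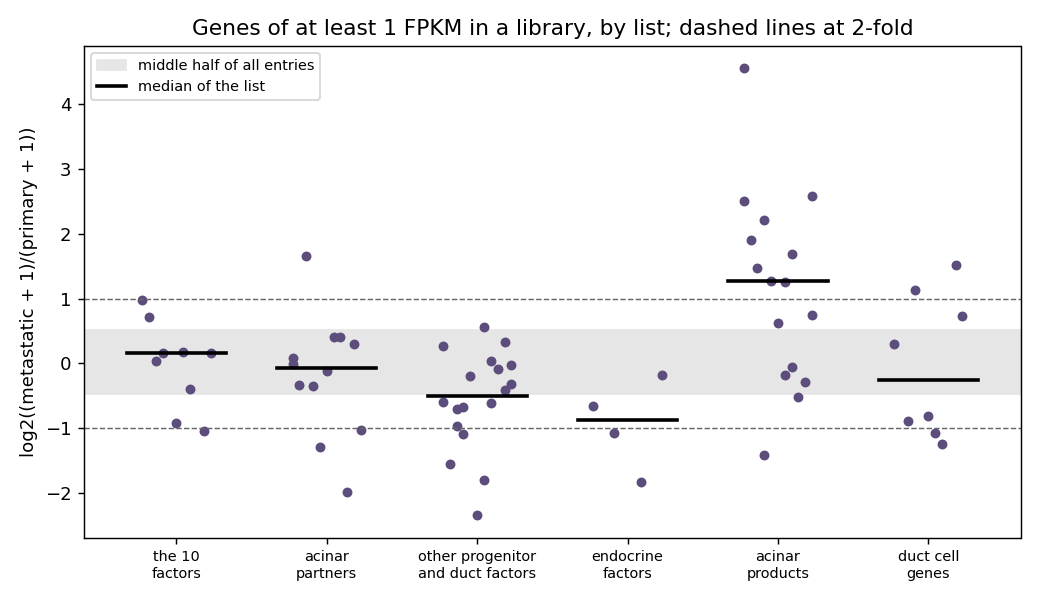
Log2 ratios of genes with at least 1 FPKM in a library, by list, with the median of each list as a bar and the middle 50% of all entries as a grey band. The 9 factors shown have a median of 0.16 and the 16 acinar products one of 1.26; genes under 1 FPKM in both libraries are not drawn.

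Several of these factors also act outside the pancreas, so markers of other tissues are given beside them. CDX2, the intestinal factor, stood at 8.30 and 3.42 FPKM and BARX1, of stomach mesenchyme, at 12.5 and 1.75, both lower in the metastatic library. HNF4G stood at 6.29 and 4.08 FPKM, CDX1 at 0.0369 and 0, and SOX2 at 0.0182 and 0.0547. Hepatocyte markers, relevant to NR5A2, ONECUT1 and GATA4, had 6 of 10 expressed genes higher and 1 lower, where 9.35% and 9.54% of all entries were. Of the 6, APOA1, APOA2 and APOB reached 1 FPKM in the metastatic library only. Summed over all 11 hepatocyte markers with rows of their own, the level was 463 FPKM in the primary graft and 1204 in the metastatic graft. APOA2 was at 0 in the primary.

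Among cells of the host or stroma, fibroblast markers were lower in 4 of 6 expressed genes and higher in 1. Of all entries 9.54% were lower and 9.35% higher. The higher marker, DCN, reached 1 FPKM in the metastatic library only. Summed levels of the fibroblast markers were 524 and 161 FPKM, of which COL1A2 alone gave 474 and 149, and LUM was at 0 in the primary. Of 7 endothelial markers 1, CLDN5, reached 1 FPKM, with summed levels of 6.39 and 2.16, and KDR was at 0 in both. Of 8 immune markers 2, LYZ and CSF1R, reached 1 FPKM. LYZ stood at 2.72 and 12.0 FPKM, and CSF1R went the other way, at 1.06 and 0.243. The immune sums of 4.91 and 12.8 thus followed LYZ. Of the 8, 4 were larger in the primary graft and 2 in the metastatic graft, and CD3E was at 0 in both. Of 7 peritoneal mesothelial markers 2, UPK3B and WT1, reached 1 FPKM, each in 1 library only and in opposite directions. UPK3B stood at 1.78 and 0 FPKM and WT1 at 0.0477 and 2.65. The mesothelial sums of 1.92 and 2.97 thus came mostly from a different gene in each library. CALB2, which had 2 rows, and LRRN4 were at 0 in both. The part of these cells in the values of SOX9, ONECUT1 and PTF1A was not tested. In such bulk libraries, fewer cells of a type and less RNA per cell cannot be told apart.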

How the data were processed

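RNA-seq libraries of 2 xenografts were analysed from 1 table of 62573 rows holding the FPKM deposited by the authors. Tools named, without role or order, in the submitters' processing notes are STAR 2.7.6a, Cufflinks 2.2.1 and bcl2fastq 2.18.0.12, with build GRCh38. How mouse reads, strand, filters and annotation were handled is not given in the sources used here. Depth is unknown, so no interval is given.

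Rows with 1 label were summed. Rows naming several symbols, 1734 in all, entered a gene only if its companions were clones, short RNAs or antisense RNAs. The log2 ratio used a pseudocount of 1 FPKM and no rescaling, and lists were counted over genes reaching 1 FPKM in a library. The calls were checked on simulated data with large changes in well expressed genes only. That check does not cover ratios near the 2-fold limit, genes of low level or differences in depth.

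The 10 factors and all lists were chosen with earlier results of these data known. All factors and every gene of lists of up to 15 could be named; a few of them are not reported here. From longer lists the rule took the 4 highest and 4 lowest log2 ratios and the 4 highest levels. Alternatives were other pseudocounts, filters, thresholds, 4 scalings, the highest row of a label and no merged loci; no pseudocount was added after seeing the data. Python 3.11.15, numpy 2.4.6, pandas 2.3.3 and matplotlib 3.10.9 were used. Human sequences were not used here.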

Additional observations from a re-analysis of the deposited data

How the results depend on the processing

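With 1 library a group, no left-out replicate could be tried. No paired analysis was possible because each group holds 1 library and no test was run. Of 168 counts of higher or lower genes under alternatives, 144 stayed within 1.5 times the reported count and 24 did not. The cause was not tested. Some of the 144 could not change. With a pseudocount of 1 FPKM, genes under 1 FPKM in both libraries cannot reach 2-fold, so counting without the filter repeats the reported count. No gene counted in the lists took its value from a merged locus, so leaving merged loci out could change only the counts over all entries. Of the 10 factors, ONECUT2 passed the limit of 1 FPKM through the metastatic library only, where it is high. For the 10 factors, the number higher went from 0 to 1 with pseudocounts of 0.1 and 0.5 FPKM, which added ONECUT2. It went to 2 with no pseudocount, which added PTF1A too. The number lower went from 1 to 2 with these 3 settings and with both scalings to the same sum, ONECUT1 joining SOX9, and to 0 at a 4-fold threshold. Under the other pseudocounts, scalings and row choices, 9 settings in all, SOX9 stayed past 2-fold at -1.22 to -1.05. SOX9 had 1 row, not merged, so the highest row and no merged loci repeated its reported value. PDX1, GATA6 and NR5A2 changed sign around 0 under some scalings. At a 4-fold threshold, other progenitor and duct factors had 1 lower, endocrine factors 0 lower, acinar partners 0 higher and 0 lower, acinar products 4 higher and 0 lower, duct cell genes 0 higher and 0 lower, and all entries 161 higher and 253 lower. Duct cell genes had 1 higher with both scalings to the same sum. A filter of 5 FPKM left endocrine factors with 0 lower and all entries with 823 lower, fewer genes being counted. With no pseudocount 1928 of all entries were lower.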
